A study of Mus musculus with 4 samples.

Results

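Potassium channel genes were examined in chromatin of mouse colorectal tumour organoids. The members were the protein-coding genes on autosomes in the GENCODE vM21 annotation whose symbol begins with Kcn followed by letters and a number. This rule gave 91 genes of 20722 autosomal protein-coding genes, and 2 further matching genes on chromosome X were not members. The rule used gene names alone, but the family was taken up with peak results of these libraries known, so its counts are descriptions and carry no test. The organoids came from a tumour of a mouse given azoxymethane, a carcinogen, and dextran sulfate sodium, which inflames the colon (AOM/DSS). They were 1 clone, number 3, at passage 14, so other tumours are not represented. No genotype is stated, and the culture text names 1 µM tamoxifen and vehicle without saying which was given, so no treatment was compared. ChIP-seq was done with 1 library each for KMT9alpha, KMT9beta and H4K12me1, plus an input that was not analysed here. No value below therefore has a replicate check, and the sequencing depth is unknown.

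KMT9alpha and KMT9beta form a methyltransferase that is known to monomethylate lysine 12 of histone H4, the mark called H4K12me1. Potassium channels let potassium leave or enter cells and thereby set the membrane potential. In neurons and muscle they end action potentials and tune firing. In the colon, basolateral channels such as the Kcnq1 and Kcne3 complex and Kcnn4 keep the cell negative and so drive chloride secretion, whereas apical channels secrete potassium. A peak at a promoter is a measure of chromatin and not of expression, and expression was not measured in these libraries.

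The promoters below were chosen after their values were seen, as examples of patterns described later. Each line gives the 250 bases upstream of a start in the RefSeq promoter table (GRCm38.p6, the assembly behind mm10), 5′ to 3′, with CpG dinucleotides in capitals. Of the 91 members, 67 were matched in that table by symbol.
Kcnq5 (chr1:21961943-21962192, minus strand): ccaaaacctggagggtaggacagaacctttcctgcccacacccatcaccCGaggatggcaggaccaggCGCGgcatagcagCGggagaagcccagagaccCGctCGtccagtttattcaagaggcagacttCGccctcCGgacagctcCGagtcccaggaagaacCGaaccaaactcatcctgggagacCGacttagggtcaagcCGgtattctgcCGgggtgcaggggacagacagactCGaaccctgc
Kcnk1 (chr8:125994852-125995101, plus strand): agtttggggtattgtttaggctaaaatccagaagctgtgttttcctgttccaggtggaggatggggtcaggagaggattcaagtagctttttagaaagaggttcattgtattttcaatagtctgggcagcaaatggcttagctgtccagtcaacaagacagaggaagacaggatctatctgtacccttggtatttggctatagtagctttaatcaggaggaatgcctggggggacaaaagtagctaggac
Kcnn4 (chr7:24370013-24370262, plus strand): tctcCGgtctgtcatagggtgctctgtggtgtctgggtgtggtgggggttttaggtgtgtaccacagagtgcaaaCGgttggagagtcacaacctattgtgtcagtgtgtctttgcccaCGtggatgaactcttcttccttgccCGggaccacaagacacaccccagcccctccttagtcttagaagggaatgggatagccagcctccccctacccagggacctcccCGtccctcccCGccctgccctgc
Kcne3 (chr7:100178433-100178682, plus strand): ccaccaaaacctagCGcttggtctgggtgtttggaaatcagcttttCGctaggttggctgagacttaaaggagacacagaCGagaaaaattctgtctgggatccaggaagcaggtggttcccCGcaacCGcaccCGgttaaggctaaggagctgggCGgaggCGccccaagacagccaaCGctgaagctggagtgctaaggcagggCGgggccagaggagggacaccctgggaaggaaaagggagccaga
Kcng3 (chr17:83631896-83632145, minus strand): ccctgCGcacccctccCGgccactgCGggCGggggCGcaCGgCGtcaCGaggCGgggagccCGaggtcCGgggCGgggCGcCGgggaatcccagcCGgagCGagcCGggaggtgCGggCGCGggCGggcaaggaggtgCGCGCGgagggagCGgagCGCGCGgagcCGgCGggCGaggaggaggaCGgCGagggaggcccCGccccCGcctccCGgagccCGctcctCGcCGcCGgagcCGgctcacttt
Kcnc1 (chr7:46396218-46396467, plus strand): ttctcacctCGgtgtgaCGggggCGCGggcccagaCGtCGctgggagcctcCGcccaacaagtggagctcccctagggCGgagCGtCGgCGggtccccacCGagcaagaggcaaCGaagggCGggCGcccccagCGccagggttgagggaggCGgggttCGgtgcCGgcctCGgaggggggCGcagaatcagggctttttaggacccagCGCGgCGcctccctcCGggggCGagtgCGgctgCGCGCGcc
Kcnj1 (chr9:32393735-32393984, plus strand): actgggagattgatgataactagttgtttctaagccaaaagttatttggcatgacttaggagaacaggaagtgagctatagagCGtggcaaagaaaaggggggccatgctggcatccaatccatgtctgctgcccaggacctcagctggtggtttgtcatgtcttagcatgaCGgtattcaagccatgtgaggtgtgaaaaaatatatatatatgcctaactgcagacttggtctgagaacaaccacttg
The first 3 lay under peaks of all 3 libraries, with 14 CpG dinucleotides in the Kcnq5 stretch, 0 in that of Kcnk1 and 6 in that of Kcnn4. The Kcne3 stretch, with 10, lay under a KMT9beta peak alone. The Kcng3 stretch, with 41, lay under KMT9beta and H4K12me1 without KMT9alpha, and the Kcnc1 stretch, with 30, under H4K12me1. A KMT9beta peak lay elsewhere in the promoter window of Kcnc1. The Kcnj1 stretch held 2 and no peak of any library lay on it.

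KMT9alpha was found at fewer channel promoters than at promoters in general, while H4K12me1 was found about as often. A promoter was taken as 1 kb on either side of any start of a protein-coding transcript, and 1 bp of overlap counted. KMT9alpha peaks lay at 31 of the 91 members (34.1%, exact 95% interval 24.5 to 44.7) against 55.8% of all genes. KMT9beta lay at 67 members (73.6%, 63.3 to 82.3) against 68.3% of all genes. H4K12me1 lay at 49 members (53.8%, 43.1 to 64.4) against 47.4%. The interval for KMT9alpha thus lay below the share of all genes, and the intervals for the other libraries held theirs. All such intervals cover counting error over genes of 1 library only.

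Some combinations at the promoter also differed in share from those of genes in general. All 3 libraries were present at 26 members (28.6%, 19.6 to 39.0), an interval that includes the 37.4% of all genes. In each of these 26 members the 3 libraries met at the same start, a state seen at 36.5% of all genes. H4K12me1 without KMT9alpha was seen at 23 members (25.3%, 16.7 to 35.5), against 9.27%. Of those 23, 17 also carried KMT9beta (18.7% of the members against 7.06%) and 6 carried H4K12me1 alone (6.59% against 2.21%). The reverse combination, both enzyme subunits without the mark, was seen at 3 members (3.30%, 0.685 to 9.33), against 16.1% of all genes. These 3 were Kcnj11, Kcnf1 and Kcnab2, and the last was the only member whose window held a start of another protein-coding gene, Nphp4. KMT9alpha alone was seen at 2 members, Kcnh8 and Kcnj14 (2.20%, against 1.63% of all genes). KMT9beta alone was seen at 21 (23.1%, against 7.80%). The remaining 16 members (17.6%, 10.4 to 27.0, against 27.1% of all genes) had no promoter peak of any library. This share is set beside genes of like promoter CpG below.

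**Figure D1:**
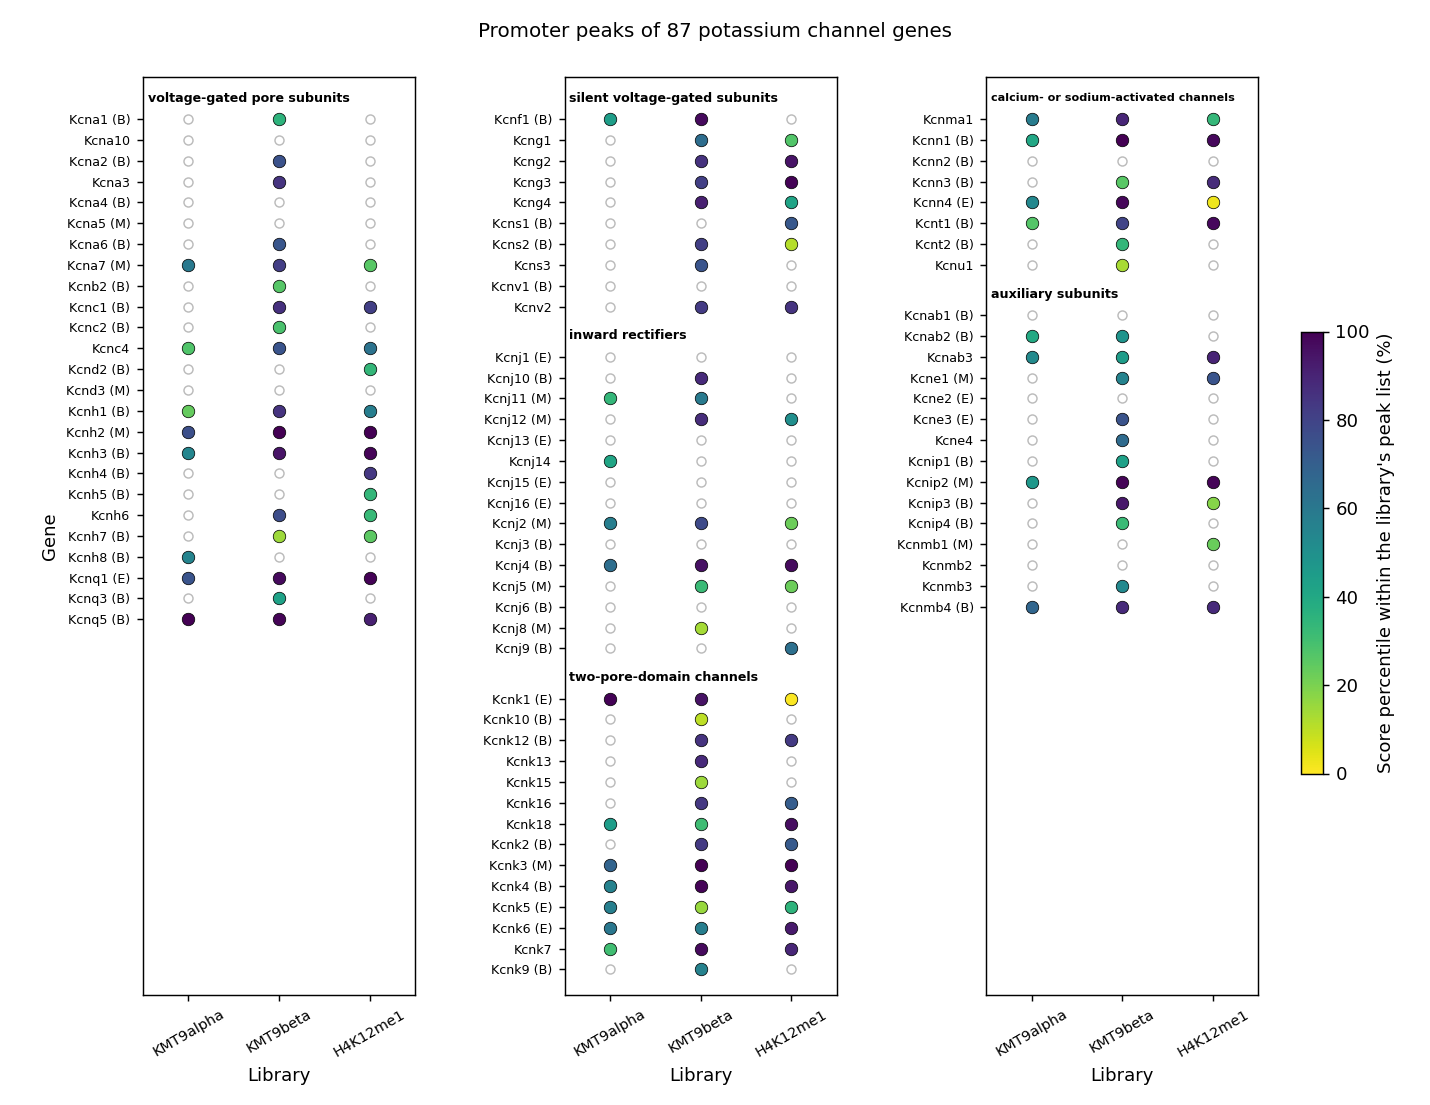
Promoter peaks of 87 of the channel genes, grouped by class, with 1 column per library. A filled circle is a promoter peak, coloured by the percentile of its score within that library's list, and an open circle is none; E, B and M mark epithelial, brain-type and heart and muscle channels. KMT9alpha circles are filled for 28 of these genes, KMT9beta for 64 and H4K12me1 for 46.

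Channel promoters were not poor in CpG, and the lower share of KMT9alpha was seen in the CpG-rich ones. All genes were placed in 5 equal classes by the observed to expected CpG ratio of their promoter windows, and 63 of the 91 members fell in classes 3 to 5. In those classes KMT9alpha was at 23 of 63 members (36.5%, 24.7 to 49.6), against 82.2% of the 12433 genes there. In class 4 it was at 6 of 21 members against 84.3% of genes, and in class 5 at 9 of 17 against 90.9%. In class 2, by contrast, members (7 of 22) and genes (28.9%) had similar shares. H4K12me1 in classes 3 to 5 was at 35 of 63 members (55.6%, 42.5 to 68.1), against 64.3%. KMT9beta there was at 51 of 63 (81.0%, 69.1 to 89.8), against 91.6%. The intervals for both subunits lay below the share of genes in these classes, and that for H4K12me1 included it. With all genes weighted to the CpG classes of the members, 63.2% of genes had KMT9alpha, 76.5% had KMT9beta and 53.0% had H4K12me1. Genes so weighted had no peak of any library at 18.6%, near the 17.6% of the members. They had all 3 libraries at 42.2%, above the interval of the members (19.6 to 39.0).

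**Figure D2:**
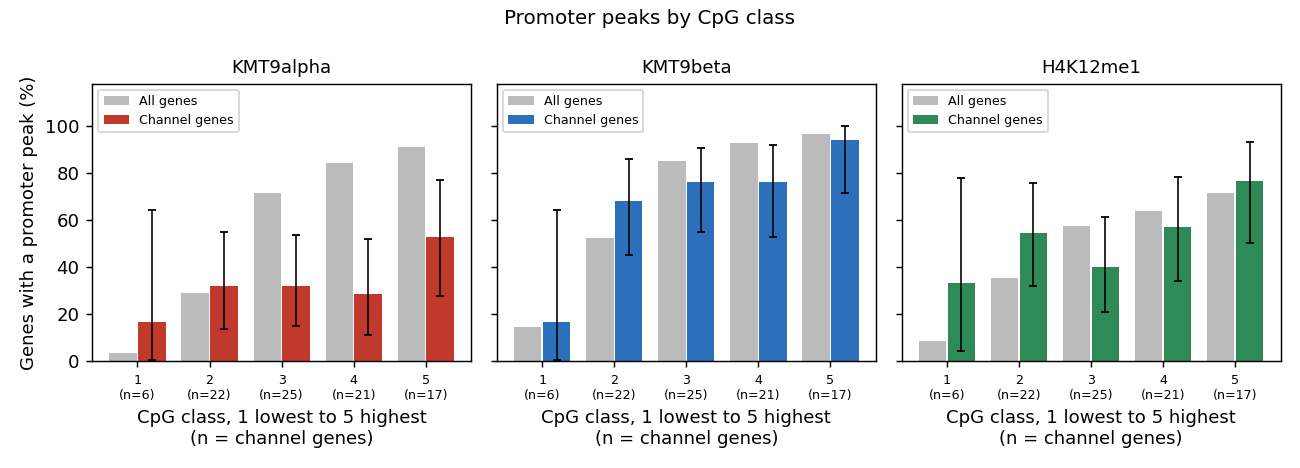
Share of genes with a promoter peak (vertical axis, percent) in 5 classes of promoter CpG ratio, in 1 panel per library. Grey bars are all autosomal protein-coding genes and coloured bars the channel genes, with exact 95% intervals; in class 5 the KMT9alpha bars stand at 90.9% and 52.9%, while the H4K12me1 bars stand at 71.4% and 76.5%.

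Where KMT9alpha was present at a channel promoter, its peak usually scored lower than those at other promoters, though not low within the whole list. Each deposited peak has a score given by the authors, at least 50, and since no source used here defines it, it serves only to rank peaks within a list. The highest promoter KMT9alpha score of the 31 members had a median of 407.8 and ran from 188.7 to 3201.98. Over all genes with such a peak the median was 2701.59. Many peaks shared a score of 3100. Scores of 3100 or more were seen at 46.2% of those genes, against 2 of the 31 members (6.45%). Scores of 1000 or more were seen at 8 of the 31 members (25.8%), against 74.5% of all genes with a KMT9alpha promoter peak. Of the 31, 19 (61.3%) were at or above the median of the whole KMT9alpha list, 313.93, against 90.5% of those genes. For KMT9beta the medians were 170.22 in the members and 207.21 in all genes, and for H4K12me1 they were 104.33 and 104.14. These peaks were taken by overlap with the window around a start, so their nearness to a start was set by that choice. The signed distance of the midpoint from a start had a median of 73 bp downstream for the highest KMT9alpha peaks, with 22 of 31 within 500 bp. The medians were 85 bp downstream for KMT9beta peaks (42 of 67 within 500 bp) and 112 bp downstream for H4K12me1 peaks (33 of 49). In the 26 members with KMT9alpha and H4K12me1, the highest peaks of these 2 libraries overlapped in 21, the exceptions being Kcnc4, Kcnh2, Kcnk7, Kcnma1 and Kcnn1. That count was not made for all genes. Of all promoter KMT9alpha peaks of the members, 71.1% (54.1 to 84.6) overlapped an H4K12me1 peak, against 62.0% over all genes, which this interval includes.

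Voltage-gated pore subunits, which open on depolarisation, carried all 3 libraries at 10 of 29 members (34.5%, 17.9 to 54.3). Genes in general at the same CpG classes had all 3 at 51.9%, inside this interval. Kcnq5, a channel of the slow M-type current of neurons, had the highest KMT9alpha score of the family, 3201.98, with KMT9beta 644.57 and H4K12me1 171.64. Its peak scored at or above 99.9% of the KMT9alpha list, in which 3100 was a common score. Of all genes with a KMT9alpha promoter peak, 46.2% had a score of 3100 or more. Where 3 scores follow a gene below, they are in the order KMT9alpha, KMT9beta and H4K12me1. Kcnh2, which carries a repolarising current of heart muscle, had 2143.05, 1620.57 and 963.76. Kcnq1, Kcnc4, Kcnh1, Kcnh3 and Kcna7 were also among the 10. H4K12me1 without KMT9alpha was found at 6 members, led by Kcnh4 (130.18) and by Kcnc1 (121.38), a channel of fast-spiking neurons. The other 4 were Kcnd2, Kcnh5, Kcnh6 and Kcnh7. Of these members, Kcnc1, Kcnh6 and Kcnh7 also carried KMT9beta. KMT9beta alone was found at Kcna1, Kcna2, Kcna3, Kcna6, Kcnb2, Kcnc2 and Kcnq3. No peak was found at 5 members, among them Kcna10, Kcna4, Kcna5 and Kcnd3, although Kcna4 and Kcnd3 fell in CpG classes 3 and 4. Across this class the scores of the members with KMT9alpha thus ran from 188.7 at Kcnh1 to the level of Kcnq5.

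Among the classes, the silent voltage-gated subunits most often carried the mark without KMT9alpha. These subunits form no channel alone and modify other voltage-gated channels. H4K12me1 lay at 7 of 10 members (70.0%, 34.8 to 93.3), KMT9beta at 8, and KMT9alpha at 1, Kcnf1, with a score of 262.53. All 7 members with the mark lacked KMT9alpha, and 6 of them carried KMT9beta: Kcng1, Kcng2, Kcng3, Kcng4, Kcns2 and Kcnv2. Genes in general at the same CpG classes had KMT9alpha at 74.2% and the mark without it at 9.32%. Kcng3 had an H4K12me1 score of 527.92, above 99.6% of that list, with KMT9beta at 170.91. Among the 1463 genes with KMT9beta and H4K12me1 but not KMT9alpha at the promoter, this was the highest H4K12me1 score, the next being 482.47. Its H4K12me1 peak was 2205 bp wide and spanned the CpG-dense stretch printed above. Kcng2 followed with 213.58 for H4K12me1 and 199.57 for KMT9beta. Kcns1 had H4K12me1 alone (102.24), Kcns3 KMT9beta alone (136.84) and Kcnv1 no peak.

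Inward rectifiers, which hold the resting potential, were the class most often without any peak. All 3 libraries lay at 2 of 15 members (13.3%, 1.66 to 40.5) and none at 6 (40.0%, 16.3 to 67.7). Genes in general at the same CpG classes had shares of 34.0% and 28.6%, each inside the interval of this class. Kcnj4, a brain channel, had a KMT9alpha score of 802.49, with KMT9beta at 358.39 and H4K12me1 at 268.77. Kcnj2, which sets the resting potential of heart and skeletal muscle, had 484.83, 151.16 and 67.38. Kcnj11, the pore of the ATP-sensitive channel, had both subunits without the mark (213.88 and 100.75). Kcnj9, a G-protein-gated subunit of neurons, had H4K12me1 alone (90.29), and Kcnj12 and Kcnj5 had it with KMT9beta (80.29 and 67.38 for the mark). KMT9beta alone lay at Kcnj10, the glial channel, and Kcnj8. The 6 members without a peak were Kcnj1, Kcnj13, Kcnj15, Kcnj16, Kcnj3 and Kcnj6, of which the first 4 are epithelial channels.

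Tandem-pore channels (the K2P family), which carry background leak currents, were the class with no member free of peaks. KMT9beta lay at 14 of 14 members (100%, 76.8 to 100), H4K12me1 at 10, and all 3 libraries at 7 (50.0%, 23.0 to 77.0). Genes in general at the same CpG classes had KMT9beta at 80.9% and all 3 at 46.6%, each inside these intervals. They had no peak at 14.8%, inside the interval of this class (0 to 23.2%). Kcnk1 had the second highest KMT9alpha score of the family, 3100, beside a KMT9beta score of 346.32, but its H4K12me1 score of 51.06 exceeded only 0.498% of that list. Kcnk3, an acid-sensitive leak channel, had 1138.62, 802.94 and 638.08, and its KMT9beta and H4K12me1 peaks were 11813 and 11450 bp wide. Kcnk6 had 604.11, 97.59 and 191.32. Kcnk4, Kcnk5, Kcnk7 and Kcnk18 also carried all 3, with KMT9alpha scores of 205.73 to 478.88. Kcnk12 (127.27) and Kcnk2 (100.78), a mechanically gated channel, led the 3 members with H4K12me1 and no KMT9alpha, and Kcnk16 was the other. Kcnk10, Kcnk13, Kcnk15 and Kcnk9 had KMT9beta alone.

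Calcium- or sodium-activated channels carried all 3 libraries at 4 of 8 members (50.0%, 15.7 to 84.3), against 29.2% of genes at the same CpG classes. Kcnma1, the large-conductance BK channel, had 517.4, 236.71 and 71.81. Kcnn4 had 373.86, 503.07 and 54.97, Kcnn1 had 241.39, 850.76 and 302.02, and Kcnt1 completed the 4. The small-conductance channels of neurons therefore differed among themselves: Kcnn1 had all 3, Kcnn3 had H4K12me1 (149.4) with a low KMT9beta peak (64.5), and Kcnn2 had none. Kcnt2 and Kcnu1 had KMT9beta alone. Among 15 auxiliary subunits, all 3 lay at Kcnmb4 (KMT9alpha 1060.55), the neuronal partner of Kcnma1, Kcnab3 (350.63) and Kcnip2 (280.56), a partner of cardiac Kcnd channels. Genes in general at their CpG classes had all 3 at 29.7%, inside the interval of these subunits (4.33 to 48.1%). Kcne1, the cardiac partner of Kcnq1, had KMT9beta and H4K12me1 (94.19 and 104.33), as had Kcnip3, while Kcnmb1, the smooth muscle partner of Kcnma1, had H4K12me1 alone (67.54). KMT9beta alone lay at Kcne3, Kcne4, Kcnip1, Kcnip4 and Kcnmb3, and no peak at Kcnab1, Kcne2 and Kcnmb2.

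Members were next grouped by the tissue where each channel is best known, from textbook knowledge: 44 brain-type, 11 epithelial, 13 of heart and muscle, and 23 others or broad ones. Among the epithelial channels, all 3 libraries lay at 5 of 11: Kcnk1, Kcnk5, Kcnk6, Kcnn4 and Kcnq1. The H4K12me1 peaks of Kcnk1 (51.06), Kcnn4 (54.97) and Kcnk5 (72.87) scored below the median of that list, 79.93. With peaks at or above each list's median score the count with all 3 was 2, and with the 25700 highest-scoring peaks of each list it was 1. KMT9beta alone lay at Kcne3 (138.38), and nothing at Kcne2, Kcnj1, Kcnj13, Kcnj15 and Kcnj16. The brain-type channels were spread over the combinations. They carried KMT9alpha at 13 of 44 (29.5%, 16.8 to 45.2), KMT9beta at 31, H4K12me1 at 22 (50.0%), all 3 at 10 (22.7%) and none at 7. Genes in general at the same CpG classes had shares of 74.5%, 86.1%, 60.1%, 50.2% and 9.46%.

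Given side by side, KMT9alpha lay at 29.5% of brain-type and 45.5% of epithelial channels, a difference of -15.9 percentage points (Newcombe 95% interval -44.8 to 12.4). For all 3 libraries the difference was -22.7 points (-51.0 to 5.35) and for H4K12me1 4.55 points (-25.5 to 32.6), so each of these intervals includes 0. A promoter with no peak was less frequent in brain-type channels, by -29.5 points (-57.3 to -1.87). Genes in general at the CpG classes of these lists had no peak at 9.46% for the brain-type and 37.3% for the epithelial list, so a gap of this direction was also seen in all genes. H4K12me1 without KMT9alpha was at 12 of 44 brain-type channels and 0 of 11 epithelial channels, a difference of 27.3 points (-0.822 to 41.8). When each list was limited to its 25700 highest-scoring peaks, the difference for all 3 libraries turned to 13.6 points.

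The 2 lists also differed in promoter CpG. Of the epithelial channels 8 of 11 fell in CpG classes 1 and 2, and of the brain-type channels 39 of 44 in classes 3 to 5. Genes in general at the CpG classes of the brain-type list had KMT9alpha at 74.5%, far above the 29.5% of that list. At the CpG classes of the epithelial list the share was 39.4%, near its 45.5%. Only classes 2 and 4 held both lists. KMT9alpha lay at 2 of 5 brain-type and 2 of 6 epithelial channels in class 2, and at 1 of 9 and 3 of 3 in class 4. These numbers are too small to compare the lists at equal CpG content. The heart and muscle channels carried KMT9alpha at 6 of 13 and H4K12me1 at 9 of 13, and the others at 7 and 13 of 23. Genes in general at the same CpG classes had 61.8% and 51.7% for the heart and muscle list, and 53.9% and 47.2% for the others. The KMT9alpha interval of the others (13.2 to 52.9%) lay below its share, and the remaining intervals included theirs.

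**Figure D3:**
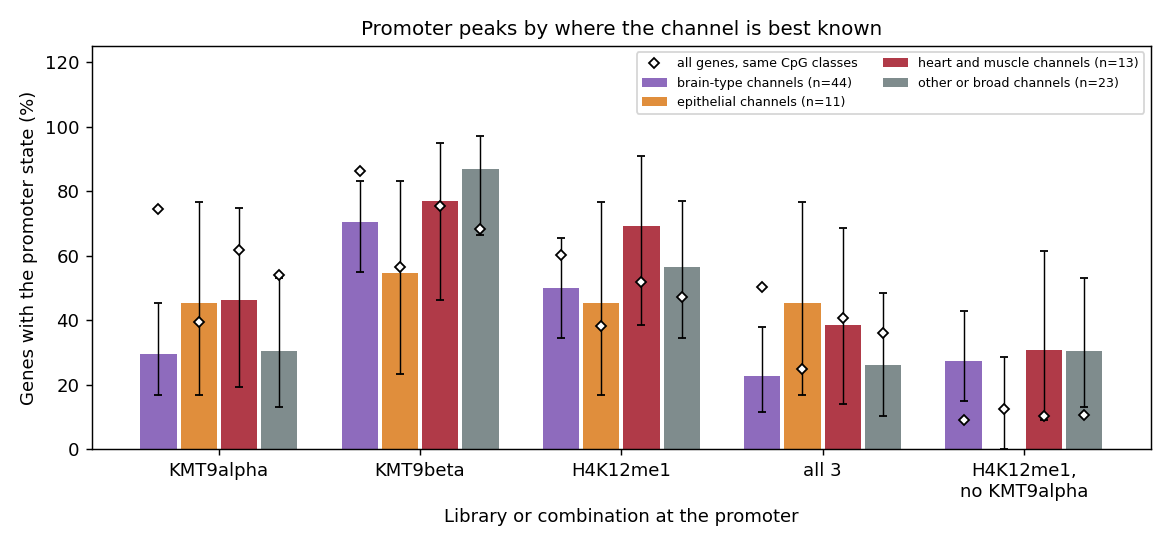
Share of channels with each promoter state (vertical axis, percent) in 4 lists, with exact 95% intervals. White diamonds give the share of all genes at the CpG classes of each list; for KMT9alpha the brain-type bar stands at 29.5% under a diamond at 74.5%, and the epithelial bar at 45.5% beside one at 39.4%.

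The epithelial channels with all 3 libraries are known from different tasks. Kcnq1 (chromosome 7, 143106362 to 143427042) supplies the basolateral potassium current of crypt cells, and it had a KMT9alpha score of 1854.76, with KMT9beta at 434.92 and H4K12me1 at 472.18. Its partner Kcne3 (chromosome 7, 100176502 to 100184869) had a single KMT9beta peak from 100178101 to 100179517, and neither KMT9alpha nor the mark was listed at any of its 5 starts. Kcne2, which pairs with Kcnq1 in the stomach, had no peak at promoter or body. Kcnn4 (chromosome 7, 24370263 to 24386690) is the calcium-activated basolateral channel, and its peaks of all 3 libraries overlapped the first start. Kcnk5 (chromosome 14, 20140057 to 20181809), a pH-sensitive channel, had 478.88, 57.79 and 72.87. Of the channels without a peak, Kcnj1 secretes potassium in the kidney, Kcnj13 serves the retinal pigment epithelium, and Kcnj16 forms heteromers with Kcnj15 or Kcnj10.

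The transport proteins that work with these channels were read from a list of 15 genes. KMT9alpha lay at 10 (66.7%, 38.4 to 88.2), KMT9beta at 12, H4K12me1 at 7 and all 3 at 5, among them Slc9a2, Atp1b1, Slc4a4 and Slc26a6. Genes in general at the same CpG classes had shares of 69.1%, 81.8%, 56.98% and 46.4%, each inside the exact interval of this list. The KMT9alpha scores of the 10 had a median of 3002.565, against 604.11 in the 5 epithelial channels with a peak and 2701.59 over all genes with one. Slc9a2, a sodium and proton exchanger, and Slc4a4, a sodium bicarbonate cotransporter, each had 3100, and Atp1b1, a sodium pump subunit, had 2905.13. Slc12a2, the basolateral chloride importer, had both subunits (3100 and 333.34) without the mark. Cftr, the apical chloride channel, and Slc26a3, the chloride and bicarbonate exchanger of the colon surface, had no promoter peak. Of cell type markers, the epithelial ones carried KMT9alpha at 8 of 8 genes, those of neurons at 3 of 8, of smooth muscle at 1 of 4 and of immune cells at 0 of 4. Genes in general at the CpG classes of these lists had it at 69.7%, 62.3%, 42.7% and 26.8%, each inside the interval of its list, so these counts do not check the cell type. The neuron markers carried H4K12me1 at 5 of 8, and Stmn2 and Elavl4 had no peak.

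Away from promoters, more members held a KMT9beta or H4K12me1 body peak than genes in general, and the density of these peaks over the whole family was lower. A body peak overlapped the gene and no promoter window of any protein-coding gene. KMT9alpha had such a peak in 22 members (24.2%, against 19% of all genes). KMT9beta had one in 68 members (74.7%, against 50.7%), and H4K12me1 in 61 (67.0%, against 42.2%). Per 100 kb of body the members held 0.626 KMT9alpha peaks (exact Poisson 95% interval 0.483 to 0.798), against 0.750 over all genes. For KMT9beta the values were 3.30 (2.96 to 3.66) and 4.33, and for H4K12me1 2.30 (2.02 to 2.61) and 2.84. The interval for KMT9alpha includes the value of all genes, and the other intervals lie below theirs. Without Kcnh2 and Kcnk3, described below, the KMT9alpha density of the members was 0.388, against 0.748 over all genes. The members are long, with a median of 32.3 kb and Kcnip4 at 1135 kb, and density fell with length. Among the 15 members of 12.7 to 24.2 kb the density was above that of genes of like length, at 19.5 against 8.03 for KMT9beta and 15.9 against 5.44 for H4K12me1. Their KMT9alpha density was 1.84 (0.598 to 4.30) against 1.41. Among the 18 members of 26.4 to 56.0 kb it was also above, at 11.98 against 6.51 for KMT9beta, 8.99 against 4.09 for H4K12me1 and 4.36 against 1.04 for KMT9alpha, where Kcnh2 and Kcnk3 held 25 of the 32 peaks. Among the 32 longest members it was below, at 1.98 against 3.30 for KMT9beta, 1.33 against 2.14 for H4K12me1 and 0.305 against 0.569 for KMT9alpha. In the 2 shortest length classes, of 6 and 20 members, every interval included the value of genes of like length. The Poisson intervals treat neighbouring peaks as independent. Introns held 84.6% of the KMT9alpha, 84.8% of the KMT9beta and 86.2% of the H4K12me1 body peaks.

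**Figure D4:**
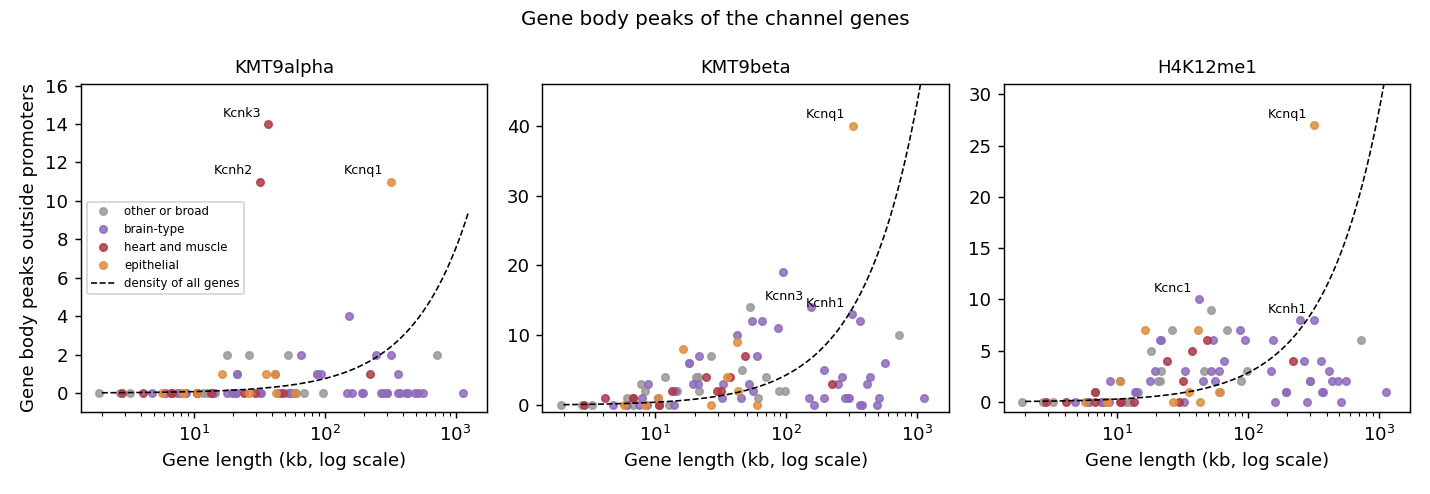
Number of gene body peaks outside promoters (vertical axis) against gene length (kb, log scale) for each channel gene, in 1 panel per library. The dashed line is the density of all genes; Kcnk3 (14), Kcnh2 (11) and Kcnq1 (11) stand highest for KMT9alpha, and Kcnq1 stands highest for KMT9beta (40) and H4K12me1 (27).

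Brain-type channels had sparse bodies, with 0.194 KMT9alpha (0.109 to 0.320), 2.29 KMT9beta and 1.53 H4K12me1 peaks per 100 kb. Epithelial channels had 2.43 (1.33 to 4.07), 11.1 and 7.80, and their median length was 26.7 kb against 62.7 kb. Kcnq1 held most of the epithelial peaks, and without it the epithelial values were 1.17, 9.37 and 7.03. Kcnn4 was the densest of the epithelial channels. Its 16.4 kb body held 8 KMT9beta and 7 H4K12me1 peaks, or 48.7 and 42.6 per 100 kb, more than 99.96% and 99.8% of the 13446 genes of at least 10 kb. Its single KMT9alpha body peak (24373248 to 24374279, intron, score 381.94) was overlapped by both other libraries. Kcnk5 held 9 and 7 peaks of KMT9beta and H4K12me1.

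Kcnq1 was the channel with most body peaks of KMT9beta and H4K12me1. It spans 320.681 kb and has 7 starts, and its body held 11 KMT9alpha, 40 KMT9beta and 27 H4K12me1 peaks. All of the KMT9alpha and KMT9beta peaks, and 26 of the 27 H4K12me1 peaks, had their midpoint in an intron. In the first 100 kb lay 9 of 11, 19 of 40 and 16 of 27. No library had a peak between 92.3 and 189 kb from the first start, a stretch of 96.3 kb. The KMT9beta peak that ended it (143295058 to 143296880, score 152.55) held the start of Kcnq1ot1, the antisense non-coding RNA of this imprinted locus, and no KMT9alpha or H4K12me1 peak overlapped it. The antisense transcript runs from its start back towards the first start of Kcnq1. Peaks beyond the one holding the antisense start thus lie outside the antisense transcript. Which transcript the peaks relate to was not tested.

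**Figure D5:**
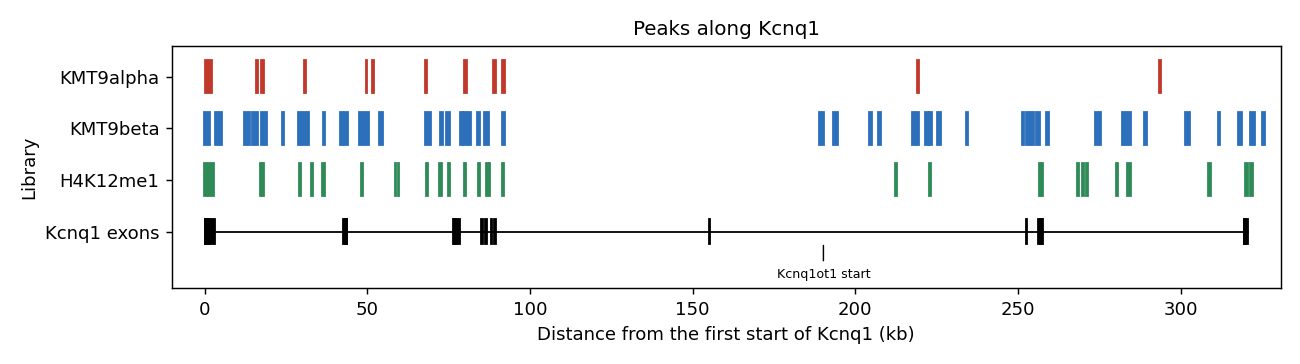
Peaks of the 3 libraries (coloured blocks) and annotated exons (black) along Kcnq1, by distance from its first start in kb; short intervals are drawn at a minimum width of 0.5 kb. The stretch from 92.3 to 189 kb holds no peak, and the KMT9beta peak at its end holds the Kcnq1ot1 start.

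Kcnh2 and Kcnk3 together held 25 of the 65 KMT9alpha body peaks of the family. Kcnk3 (chromosome 5, 30588170 to 30625271) had 14 over its 37.1 kb, with scores of 78.9 to 1027.75, and Kcnh2 (chromosome 5, 24319589 to 24351604) had 11 over 32.016 kb, with 75.39 to 735.01. The densities of 37.7 and 34.4 per 100 kb exceeded those of 99.96% and 99.9% of genes of at least 10 kb. All 25 were overlapped by peaks of both other libraries, which were fewer and broader here, up to 14721 bp in Kcnk3. Without these 2 genes the KMT9alpha density of the family was 0.388 per 100 kb, against 0.748 over all genes. The share of KMT9alpha body peaks overlapped by both other libraries was 55.4% (36 of 65), against 33.9% over all genes, and without them it was 27.5% (11 of 40). Both genes lie on chromosome 5, where promoters in general also carried KMT9alpha more often (64.6% of 1257 genes). The other member on this chromosome, Kcnip4 (48389502 to 49524907), held no KMT9alpha body peak over its 1135 kb. The part of the chromosome, or of a region of it, in these counts was not tested. Among the other members, Kcnh6 had a body site of all 3 libraries 24.0 kb from its start (KMT9alpha score 785.97) and Kcnip1 had 1 deep in an intron, 238 kb from its start (615.44, 607.06 and 319.11).

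Body peaks of other members were mostly of KMT9beta and H4K12me1. Kcnn3 held 14 KMT9beta peaks and Kcnh1 13. Kcnc1 held 10 H4K12me1 peaks, more than any member but Kcnq1, though its promoter lacked KMT9alpha. Kcnj6, with no promoter peak, held 2 KMT9alpha, 3 KMT9beta and 8 H4K12me1 body peaks. At the other end, 7 members had no peak at promoter or body: Kcna10, Kcna5, Kcne2, Kcnj1, Kcnj13, Kcnj3 and Kcnv1.

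Short sequence motifs were searched on both strands of the promoter windows, with a median length of 2244 bp in the members and 2088 bp in all genes. The RE1 element, bound by the neuronal repressor REST, was matched in 3 members (3.30%, exact interval 0.685 to 9.33), against 0.758% of all genes. The share of all genes lay inside this interval. The 3 were Kcnh4, Kcnk12 and Kcnt1, all brain-type, and the matches of the first pair are shown with all their bases in capitals.
Kcnh4 (chr11:100759011-100759027, minus strand): TTCAGCACCCTGGACAG
Kcnk12 (chr17:87798584-87798600, plus strand): GTCAGCACCGCGGACAG
The Kcnh4 match, 721 bp downstream of a start, lay under an H4K12me1 peak, and the Kcnk12 match, 598 bp upstream, lay under a KMT9beta peak. The Kcnt1 match also lay under a KMT9beta peak. No KMT9alpha peak covered any of the 3. For Kcnh4 and Kcnk12 this was fixed, since their promoter windows held no KMT9alpha peak. The GC box (GGGCGG) was in 89.0% of members against 71.5% of all genes, and the E-box (CACGTG) in 34.1% against 36.2%. A CDX-type motif (TTTATG) was in 58.2% against 70.0%, and the cyclic AMP response element (TGACGTCA) in 3.30% against 4.93%. Each motif was counted on its own, so matches of different motifs may share bases, and a match describes the sequence and is not a binding site.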

How the data were processed

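ChIP-seq peak lists of KMT9alpha, KMT9beta and H4K12me1 (1 library each) were used as deposited. Reads were mapped to mm10; the labels' protocols name STAR and the submitters' processing notes name Bowtie2, and no source used here gives the peak caller's settings. The deposited score of each peak has a minimum of 50 and was compared only within a list. The lists held 25700, 89936 and 60058 autosomal peaks. Starts and genes came from GENCODE vM21 on GRCm38.p6, and peaks were joined to promoters (1 kb, 1 bp overlap) and gene bodies with Python 3.11.15 and pandas 2.3.3; the joins were tested on simulated data. Intervals are exact binomial (Clopper-Pearson), Newcombe or exact Poisson. With 1 library per antibody no p-value was computed.

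The members, the tissue and class lists, the transport and marker lists and the comparisons were chosen with earlier results of these data known. Named genes were the epithelial channels, and per class the highest KMT9alpha scores among promoters with all 3 libraries, the highest H4K12me1 scores without KMT9alpha, the first members without peaks in alphabetical order, and the members with most body peaks; other members are listed by state, and a few are counted but not named here. The motifs, the printed promoters and the 3 other receptor and channel families were chosen after the peak lists were opened.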

Additional observations from a re-analysis of the deposited data

How the results depend on the processing

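Alternatives changed the promoter window (500 bp or 5 kb), the overlap rule, the starts used, the chromosomes, shared windows and the peaks taken. Of 151 recomputed values 119 stayed within 1.5 times the reported count or the interval. That number includes KMT9alpha values under the 25700-peak setting, which could not change because this is the whole KMT9alpha list. The interval rule is also wide. With those peaks the brain-type minus epithelial difference for H4K12me1 went from 4.55 to 20.5 points and still stayed inside. With the 25700 highest-scoring peaks of each list, members with KMT9beta fell to 42, with H4K12me1 to 31, with all 3 to 16 and with KMT9beta and H4K12me1 only to 7. As shares these were 46.2%, 34.1%, 17.6% and 7.69%, against 50.3%, 30.2%, 23.3% and 2.27% of all genes. The share with KMT9beta thus went from above that of all genes to below it. Epithelial channels with H4K12me1 fell to 2 and with all 3 to 1, and the brain-type minus epithelial difference for all 3 turned from -22.7 to 13.6 points. KMT9beta body density was then 0.800 in members, 0.440 in brain-type and 3.47 in epithelial channels, and H4K12me1 density 0.848, 0.479 and 3.81. With peaks at or above the median score, members with KMT9alpha numbered 19 (20.9%, against 50.5% of all genes). Those with H4K12me1 numbered 32 (35.2%, against 32.6%) and with all 3 10 (11.0%, against 24.3%). KMT9beta was then at 53.8% of members, against 60.0% of all genes. Brain-type channels with KMT9alpha then numbered 7 and with all 3 6, and epithelial channels 2 for H4K12me1 and 2 for all 3. Body densities at that score, in members, brain-type and epithelial channels, were 0.164, 0.0129 and 0.520 for KMT9alpha, 1.53, 0.893 and 6.93 for KMT9beta, and 1.03, 0.582 and 4.16 for H4K12me1. These settings use fewer peaks by construction. Without chromosomes 5 and 19 the KMT9alpha body density of members was 0.418 (0.578 in all genes). Leaving out Kcnq1 (epithelial 1.17) and leaving out Kcnh2 and Kcnk3 (members 0.388) were added after seeing the data. Under every alternative the share of members with KMT9alpha stayed below that of all genes. No paired analysis was possible because each antibody has 1 library. Depth is unknown, so a missing peak cannot be read as a missing signal.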

Other observations

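Other families of excitable cells were counted in the same way, chosen after the peak lists were opened. Voltage-gated sodium channel genes carried KMT9alpha at 2 of 14 promoters, KMT9beta at 5, H4K12me1 at 4 and no peak at 8. Voltage-gated calcium channel genes, pore and auxiliary subunits together, carried KMT9alpha at 8 of 25 (32%, 14.9 to 53.5), KMT9beta at 19, H4K12me1 at 13 and no peak at 4. GABA and glutamate receptor genes carried KMT9alpha at 11 of 43 (25.6%, 13.5 to 41.2), KMT9beta at 22, H4K12me1 at 13 and no peak at 20. The share with KMT9alpha in each family was under the 55.8% of all genes. The potassium and calcium channel genes had H4K12me1 at 53.8% and 52.0%, and the sodium channel and receptor genes at 28.6% and 30.2%. The differences between these families were not tested.

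All 5 members on chromosome 19 (Kcnip2, Kcnk18, Kcnk4, Kcnk7 and Kcnv2) carried KMT9beta and H4K12me1, and 4 of them KMT9alpha. On that chromosome 72.3% of all 715 genes carried H4K12me1 and 67.1% carried KMT9alpha.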
